A study of Homo sapiens with 12 samples.

Results

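The regions described here are open-chromatin sites around 8 genes of neural progenitor cells, PAX6, NES, NEUROG2, OLIG2, POU3F2, HES5, OTX2 and GLI3. The assay was ATAC-seq (a transposase cuts and tags DNA where chromatin is accessible), and the cells were U2OS, a human osteosarcoma line. A site is a stretch of hg38 formed by merging overlapping peaks of all 9 deposited lists, and it was taken up if it overlapped the gene span of a member or the 50 kb on either side. This gave 166 of 311447 sites. The genes were chosen for their known control by SOX2 in neural cells.

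The 12 samples fall into 6 groups of 2. In what is called the FOXA2 set, U2OS cells labelled wild type were set beside cells carrying a Tet-on (doxycycline-inducible) construct of full-length Flag-tagged FOXA2 and beside cells with a Tet-on FOXA2 lacking the domain labelled CTD. Each of these 6 libraries had its own peak list. In the SOX2 set, another wild type, whose label also names the SOX2 cell line, was set beside cells with Tet-on SOX2 and cells with a Tet-on fusion of SOX2 and the FOXA2 CTD. Each of these groups had 1 list, in the layout of the IDR procedure (irreproducible discovery rate) for a pair of inputs, taken to be both samples. The construct samples carried the label of doxycycline at 500 ng/ml for 4 days. The treatment field of both wild types is empty, although the general protocol text of every sample names doxycycline, so whether wild-type cells received it is not known. The labels do not say whether a line was a clone or a pool.

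SOX2 is an HMG-box transcription factor that keeps neural progenitors in their undifferentiated state and often binds next to POU-domain factors, and it is counted among the pioneer factors, which can bind DNA in closed chromatin. FOXA2 is a forkhead pioneer factor of endoderm. Among the 8 genes, PAX6, OTX2 and POU3F2 encode homeodomain or POU factors of the early neural plate and brain, NEUROG2 and OLIG2 encode bHLH factors that commit progenitors to neurons or to motor neurons and oligodendrocytes, HES5 encodes a repressor downstream of Notch, GLI3 encodes a zinc-finger effector of Hedgehog signalling, and NES encodes the intermediate filament nestin. U2OS is of bone origin.

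The lists differ in length and threshold, and this bears on every count below. Those of the FOXA2 set held from 19862 (wild type replicate 1) to 161136 peaks (full-length replicate 1). With the global IDR limited to 0.05, the wild type of the SOX2 set had 48142 entries, SOX2 had 65628 and the fusion 75544. Read depth is unknown. The lists of replicate 2 of wild type and of full length had 0 mitochondrial peaks and lowest −log10 p values of 5.43 and 5.22, whereas the other 4 lists of that set had 2 mitochondrial peaks each and lowest values from 2.01 to 3.44, which is read here as 2 processing batches. The sample labels name no batch, so the batches are inferred, and the one without mitochondrial peaks holds no CTD deletion library. Of 8 genes listed as marks of the mesenchymal origin of U2OS, from 3 to 8 had a peak in their span (with 1 kb on either side) in a list, and COL1A1 did in every list. Of 4 genes of blood, endothelium, liver and epithelium from 1 to 4 did, so this measure does not mark off the cell type. By starts, neither PTPRC nor ALB had a peak within 1 kb in any list, and no start was available for CDH5 and EPCAM. Starts were available for 4 of the mesenchymal genes, and from 0 to 4 of these had such a peak in a list. Peaks in the FOXA2 gene span were present in all 9 lists and peaks in the SOX2 span in 8 (not in wild type replicate 2), so these spans do not check the labels.

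Start sites of the members were mostly closed. Starts came from RefSeq (GRCh38.p14), which gave 15 start windows for 6 of the genes, and the 5′ end of the gene span, with the strand taken from general knowledge, was used for OLIG2 and GLI3. In the wild-type lists of the FOXA2 set 2 and 1 of the 8 genes had a peak within 1 kb of a start, where 38.5% and 36.7% of 15814 protein-coding genes did. In the full-length lists 3 and 2 did, against 66.2% and 58.1%, and in the CTD deletion lists 3 and 4, against 51.8% and 66.4%. In the SOX2 set the numbers were 2 (wild type), 2 (SOX2) and 1 (fusion), against 57.6%, 60.1% and 55.1%. None of the 8 was open at a start in every list, where 23.3% of genes were. OLIG2 and POU3F2 were the only members with an open start in more than 3 lists. NEUROG2, HES5, OTX2 and GLI3 had none in any list, as had 24.3% of protein-coding genes. Starts inside the GLI3 span were not available.

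Upstream sequences of 3 starts are shown because they cover the range seen: the start of POU3F2 was open in 7 lists, that of NES had a peak over it with CTD-deleted FOXA2 alone, and that of HES5 was closed in every list and holds 3 copies of the SOX core, as many as the PAX6 starts at 31807622 and 31803673. Each is the 250 bases before the start from RefSeq, 5′ to 3′ on the strand of the gene, with matches to the SOX core (ACAANG, either strand) in capitals. They lie at chr6:98834324-98834573 (POU3F2, plus strand), chr1:156677408-156677657 (NES, minus strand) and chr1:2530264-2530513 (HES5, minus strand).
POU3F2: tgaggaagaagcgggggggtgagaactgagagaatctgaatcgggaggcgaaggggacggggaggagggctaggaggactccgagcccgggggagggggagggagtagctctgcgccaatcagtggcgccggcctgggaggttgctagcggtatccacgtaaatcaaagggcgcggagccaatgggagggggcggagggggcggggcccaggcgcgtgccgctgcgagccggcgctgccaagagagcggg
NES: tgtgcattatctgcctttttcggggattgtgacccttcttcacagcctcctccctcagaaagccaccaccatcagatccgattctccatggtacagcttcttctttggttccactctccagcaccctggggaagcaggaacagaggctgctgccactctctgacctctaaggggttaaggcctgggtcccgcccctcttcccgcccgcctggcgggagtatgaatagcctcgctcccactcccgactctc
HES5: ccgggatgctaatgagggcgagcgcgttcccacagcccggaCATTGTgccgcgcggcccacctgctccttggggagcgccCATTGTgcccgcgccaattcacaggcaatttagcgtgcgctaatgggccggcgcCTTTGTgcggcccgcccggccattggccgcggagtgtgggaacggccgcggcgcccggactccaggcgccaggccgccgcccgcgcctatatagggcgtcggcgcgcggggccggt

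The HES5 sequence holds 3 matches to the SOX core, while the stretches of POU3F2 and NES hold 0. Over the full windows, from 250 bases before to 50 after a start, 5 of 15 member windows had a match, and 35.4% of 34961 RefSeq windows did. The forkhead letters TGTTTAC and the AP-1 letters TGANTCA were found in 0 of the 15 member windows, against 3.42% and 7.68% of all windows. The SOX-POU composite motif was in 0 of the 15 and in 2 of all windows. A match only describes letters, and sequences of the distal sites were not analysed here.

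The OLIG2 start was open in more lists than that of any other member. Its site, chr21:33025091-33026550, had an authors' fold enrichment of 5.93 and 9.04 in wild type replicates 1 and 2, 5 and 11.9 in the full-length replicates, and 5.97 and 7.69 in the CTD deletion replicates. These folds are relative to the background of each library and are not compared between libraries. By −log10 p it stood at percentiles 72.4 and 90.03 of the wild-type lists, 89.6 and 92.3 of the full-length lists, and 93.8 and 98.4 of the CTD deletion lists, where 100 is the strongest peak of a list. In the SOX2 set it stood at percentile 91.7 in wild type and 45.8 with SOX2, and with the fusion its entry missed the IDR threshold at 0.336. Input −log10 p values behind the entries were 45.3 and 30.3 in wild type, 11.1 and 30.9 with SOX2, and 3.70 and 15.7 with the fusion. The site was thus called in 8 lists and counted as lost with the fusion.

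The POU3F2 start, chr6:98833829-98834877, was called in wild type replicate 1, full-length replicate 1, both CTD deletion libraries and all 3 lists of the SOX2 set. Its percentile was 43.6 in wild type replicate 1 and 72.0 in full-length replicate 1. In the CTD deletion libraries it stood at 77.6 and 81.2, and in the SOX2 set at 84.1 (wild type), 68.9 (SOX2) and 60.3 (fusion). The 2 lists that lack it are those of the batch without mitochondrial peaks.

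At NES the peak over the start, chr1:156677350-156677741, was called in both CTD deletion libraries (percentiles 34.9 and 72.2) and in no other list. A second site next to it, chr1:156678023-156678384, was called with full-length replicate 2 alone (percentile 56.4). An entry of the SOX2-set wild type that touched both sites missed the threshold with an IDR of 0.17, and a SOX2 entry over the second did so with 0.0726. PAX6, which has 9 RefSeq starts over its 28936 bp span, had 1 peak near a start in full-length replicate 1 (chr11:31806987-31807235) and 1 in CTD deletion replicate 2 (chr11:31802932-31803240), each in a single library.

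**Figure D1:**
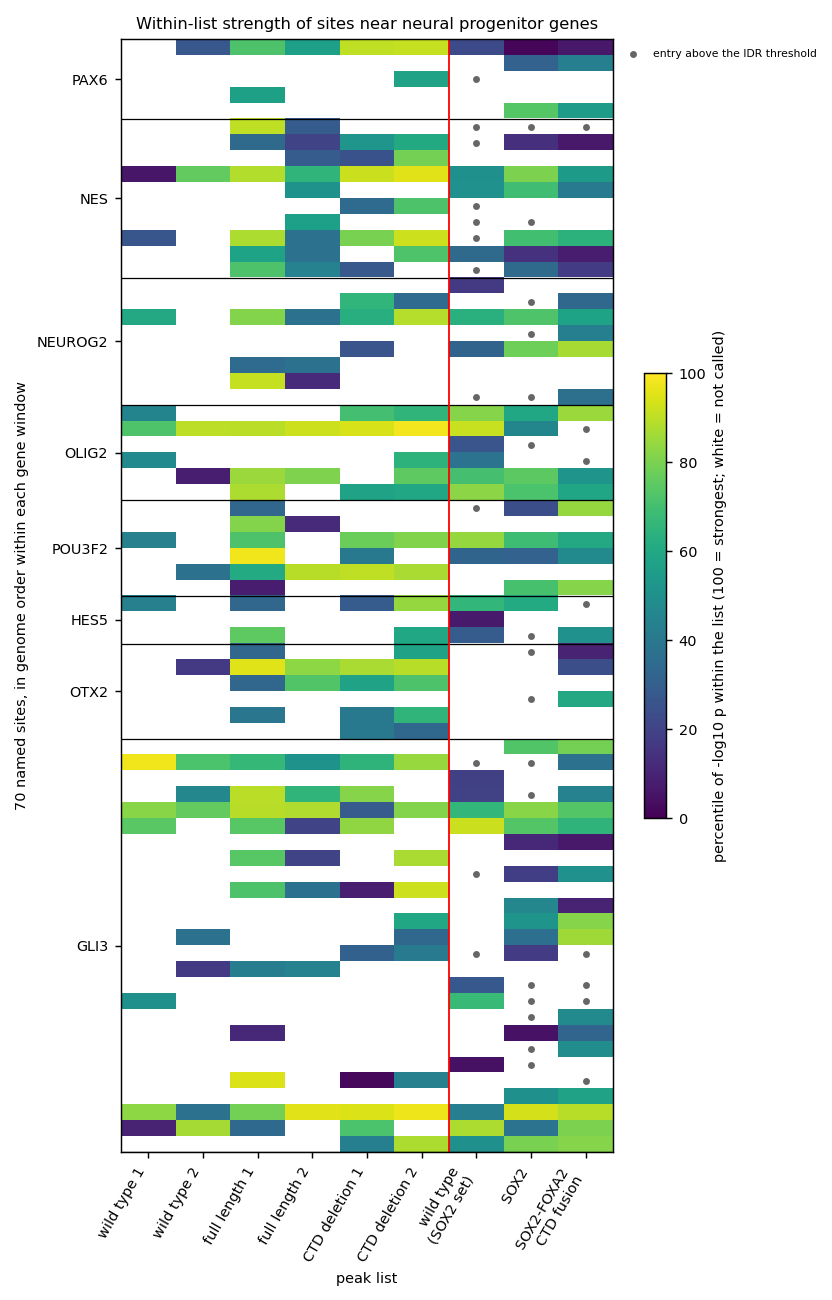
Each row is 1 of the 70 sites that met the rule given under the processing, without its limit of 8 per gene. Rows are in genome order within each gene window. Each column is a peak list, with the FOXA2 set left of the red line and the SOX2 set right of it. Colour is the percentile of −log10 p within that list (100 the strongest), white is not called, and grey dots are entries of the SOX2 set that missed the IDR threshold; few rows are filled across all 9 columns.

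The comparison of SOX2 with the wild type of its set asked whether neural progenitor genes gain open sites when SOX2 is expressed in bone tumour cells. Gained means present in the list of the construct and absent from that of the wild type, and lost means the reverse. With SOX2, 16 of the 166 sites were gained (9.64%), and 11.2% of all sites were. They lay around 4 genes, 9 at GLI3, 3 at NES, 2 at PAX6 and 2 at POU3F2, while NEUROG2, OLIG2, HES5 and OTX2 had 0. Of all protein-coding gene windows, 75.2% had at least 1 SOX2-gained site. The share near the members was therefore close to that of the genome, and none of the 16 was within 1 kb of a member start. IDR compares the inputs of 1 list with each other, but with 1 list per group the difference between groups has no replicates.

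With the SOX2-FOXA2 CTD fusion, 24 sites were gained (14.5%), against 14.4% of all sites. GLI3 had 11 of them, NES, NEUROG2 and OTX2 had 3 each, and PAX6 and POU3F2 had 2 each. At least 1 fusion-gained site was present in 76.7% of protein-coding gene windows and in those of 6 members. Of the member sites, 15 were gained with both constructs (9.04%, against 7.97% of all sites). A comparison of constructs that share a wild type counts such sites together in part because of that shared list.

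Both PAX6 sites were gained with each construct and lay outside the gene. The upstream site, chr11:31828950-31829860, is 10989 bp before the outermost start, within the antisense RNA genes PAUPAR and PAX6-AS1. It ranked 17343 of 65628 with SOX2 and 33949 of 75544 with the fusion. The downstream site, chr11:31785996-31786820, lies in ELP4, the neighbouring gene that is known to hold distant PAX6 enhancers, and ranked 45105 and 43068. Neither site had a wild-type entry at any IDR or a peak in any list of the FOXA2 set.

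At POU3F2, chr6:98879904-98880911, 45330 bp from the start and within FBXL4, ranked 19106 with SOX2 and 13690 with the fusion and had no wild-type entry. The second gain, chr6:98808430-98809236, 25338 bp upstream, ranked 49797 and 12052. A wild-type entry at that site missed the threshold at an IDR of 0.308, with input −log10 p values of 4.07 and 9.14. Full-length replicate 1 had a peak at both sites, at percentiles 7.57 and 32.9.

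The gains in the NES window lay near other genes for 2 of 3 sites. One, chr1:156624210-156626270, overlaps HAPLN2, and another, chr1:156725718-156726365, overlaps ISG20L2. The site nearest to NES, chr1:156688909-156690147, is 11502 bp upstream and ranked 19919 with SOX2 and 27071 with the fusion. Its wild-type entry missed the threshold with an IDR of 0.095 and inputs of 8.26 and 22.9, and wild type replicate 1 of the FOXA2 set called it as well. All 3 NES gains had a failing wild-type entry.

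GLI3 held 60 of the 166 sites in a window of 403 kb, out of 1164 kb for the 8 windows. Of its 9 SOX2-gained sites 8 lay in the gene span, which is 303320 bp long. The best ranked in the SOX2 list was outside it, chr7:41911755-41912543, at 17693, and ranked 15677 with the fusion. Within the gene, chr7:42058360-42059144 ranked 31608 and 13728, chr7:42069848-42070631 ranked 41634 and 10755, and chr7:42232126-42232740 ranked 32755 and 31885. None of these 4 had a wild-type entry in the SOX2 set. The site at 42069848 was, however, called in wild type replicate 2 of the FOXA2 set, and CTD deletion replicate 2 called it and the one at 42058360.

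Of the other GLI3 sites gained with SOX2, chr7:41984828-41985397, chr7:42053599-42054386 and chr7:42143020-42144321 were gained with the fusion too, at SOX2 percentiles of 11.3, 46.3 and 4.90. The site chr7:41996187-41996723 was gained with both constructs but had a wild-type entry at an IDR of 0.177. The only SOX2-only site of the members was chr7:42077952-42078848, where the fusion entry missed the threshold at 0.0629 and the wild-type inputs were 2.42 and 16.3.

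**Figure D2:**
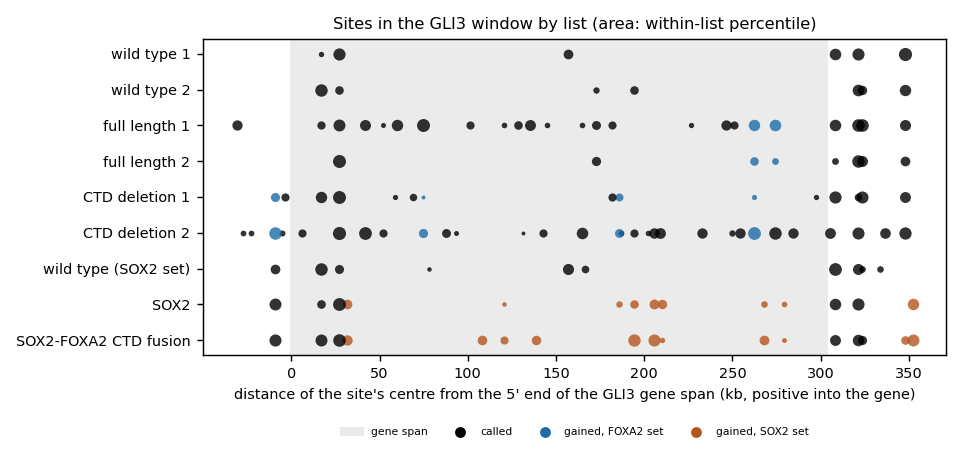
The horizontal axis is the distance in kb of a site's centre from the 5′ end of the GLI3 gene span, positive into the gene, and each row is a peak list. Point area is the within-list percentile, blue marks sites gained with a FOXA2 construct and orange sites gained with SOX2 or the fusion; orange points run through the gene body, with 8 SOX2-gained sites inside the span.

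Of the fusion gains, 9 were not called with SOX2 (5.42% of the 166 sites, against 6.42% of all sites), and they stood at 3 genes, 3 each at NEUROG2, OTX2 and GLI3. Such a site was present in 51.4% of protein-coding gene windows. The opposite class held 1 site (0.602%, against 3.19%). At NEUROG2 they were chr4:112518642-112519191, 2462 bp upstream of the start, chr4:112526092-112526471 and chr4:112550713-112551194, with fusion percentiles of 33.5, 43.3 and 36.7. At OTX2 they were chr14:56751866-56752873, chr14:56821602-56822422 and chr14:56829193-56829757, with fusion percentiles of 9.46, 24.0 and 60.3. The GLI3 sites were chr7:41915727-41917129, chr7:42125431-42125913 and chr7:42156100-42156801.

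Of the 9 fusion-only sites 8 had a SOX2 entry that missed the IDR threshold, among them chr14:56829193-56829757 at 0.068 and chr7:41915727-41917129 at 0.0894. The exception was chr14:56821602-56822422, which had no SOX2 entry at all and was called in wild type replicate 2, both full-length and both CTD deletion libraries. When a site counted as not called only without an entry at any IDR, 1 fusion-only site was left. The share with a failing SOX2 entry was not computed for all fusion-only sites of the genome. OTX2 had no site called in the SOX2 list or the SOX2-set wild type, and 3 with the fusion.

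The gains with SOX2 or the fusion differed in how firmly the wild type lacked them. A wild-type entry that missed the threshold lay at 6 of the 16 SOX2 gains and 7 of the 24 fusion gains. Counting only sites with no wild-type entry left 10 and 17. With the strongest 48142 entries of each list, 10 were gained and 12 lost with SOX2, and the fusion had 16 gains and 12 losses. Cutting lists to equal length in itself moves gains and losses toward equal numbers. The shares over all sites were not computed at this setting. Under 4 changes of the lists (equal numbers, an IDR of at most 0.01, no entry at any IDR, and entries covering at least 50% of the site) 8 SOX2 gains were kept in all, 2 at PAX6, 1 at POU3F2 and 5 at GLI3. These are chr11:31785996-31786820, chr11:31828950-31829860, chr6:98879904-98880911, chr7:41911755-41912543, chr7:42053599-42054386, chr7:42058360-42059144, chr7:42069848-42070631 and chr7:42232126-42232740. For the fusion 11 of 24 were kept in all 4. The shares with a failing entry, or kept in all 4, were not computed for all gained sites of the genome.

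Within the SOX2 list the 16 gained sites stood at a median percentile of 35.7 (from 4.90 to 73.6), and within the fusion list the 24 stood at 45.5 (from 6.87 to 85.8). Of the 25 sites gained with either construct, 12 were called in no list of the FOXA2 set and 4 were called in a wild type of that set. These 4 are the NES site at 156688909, the OTX2 site at 56821602 and the GLI3 sites at 42069848 and 41915727. The last was the 405th strongest of 19862 peaks in wild type replicate 1, at percentile 98.0, while its SOX2-set wild-type entry had inputs of 31.1 and 5.01. How often all sites gained with either construct were called in the FOXA2 set was not computed.

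Sites lost in the SOX2 set lay at other genes in part. With SOX2, 10 sites were lost (6.02%, against 5.57% of all sites), 5 at GLI3, 2 at OLIG2, 2 at HES5 and 1 at NEUROG2. With the fusion, 10 were lost (6.02%, against 5.63%), 4 at GLI3, 3 at OLIG2, 2 at HES5 and 1 at NEUROG2, and 8 were lost with both (4.82%, against 3.99% of all sites), with a shared wild type. Of protein-coding gene windows, 61% had a site lost with SOX2 and 64.5% one lost with the fusion, as had those of 4 members in each case. OLIG2 and HES5 had losses and no gain with either construct. The HES5 site lost with both was chr1:2534896-2535486, 4633 bp upstream of the start, at percentile 7.14 of the wild type. The OLIG2 sites lost with both were chr21:33036249-33036898 and chr21:33042556-33043532, at percentiles 26.5 and 38.0. At NEUROG2 it was chr4:112509515-112510191, at 16.9. A site over the PANK4 start in the HES5 window, chr1:2525410-2527035, was lost with the fusion (entry at an IDR of 0.511) and called with SOX2. Of the 10 sites lost with SOX2, 6 had a SOX2 entry that missed the threshold, and 4 remained lost when no entry at all was asked for, against 5 with the fusion. Such shares were not computed for all lost sites of the genome.

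**Figure D3:**
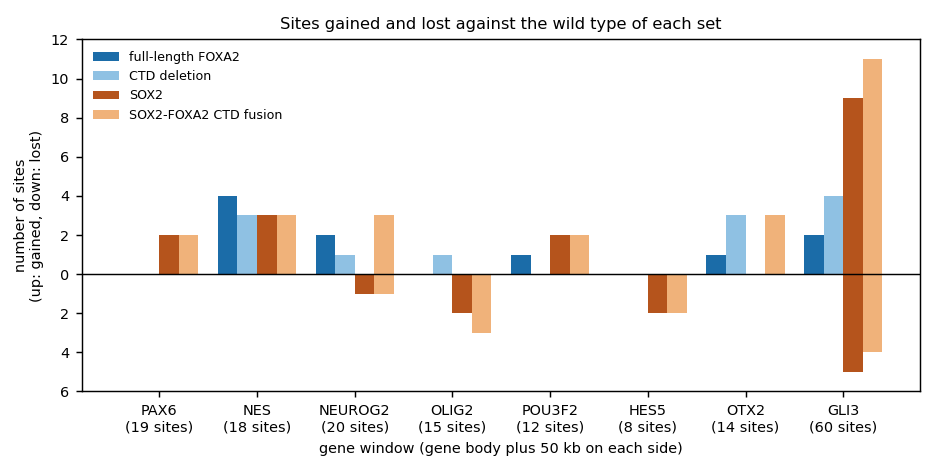
Bars above 0 count the sites gained and bars below 0 the sites lost in each gene window, for the 4 constructs against the wild type of their own set. GLI3, with 60 sites, holds 9 SOX2-gained and 11 fusion-gained sites, while OLIG2 and HES5 have bars only below 0 in the SOX2 set.

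In the FOXA2 set a site counted as gained if both libraries of a construct called it and neither library labelled wild type did. With full-length FOXA2, 10 member sites were gained (6.02%, against 8% of all sites) and 0 were lost (0.131% of all sites were). Gains were 4 in the NES window, 2 at NEUROG2, 2 at GLI3, 1 at POU3F2 and 1 at OTX2, and PAX6, OLIG2 and HES5 had 0. None of the 4 in the NES window had NES as its nearest start. Those at chr1:156619380-156619824 and chr1:156704787-156705853 lay over the starts of HAPLN2 and CRABP2, and the rest were nearest to HAPLN2 and ISG20L2. With the CTD deletion, 12 were gained (7.23%, against 7.86%) and 0 were lost (0.0482% of all sites were). These were 4 at GLI3, 3 at NES, 3 at OTX2, 1 at NEUROG2 and 1 at OLIG2. Both comparisons share the wild-type libraries, and 3 sites were gained in both (1.81%, against 3.83% of all sites). Gains stood in the windows of 5 members with each construct, and in 73.4% and 69.5% of protein-coding gene windows.

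These counts rested on the length of the lists and on single libraries. Of the 10 and 12 gains, 0 and 0 were kept under all 3 changes of the lists (equal numbers, a common −log10 p, and peaks covering at least 50% of the site), so none of the FOXA2 gains named here was kept in all. With the strongest 19862 peaks of each list 1 site was gained with each construct, and 2 (full length) and 3 (CTD deletion) were lost. Such a cut shortens the construct lists most, so gains are not weighed against losses at this setting. None of the 10 and 12 sites above was gained there. At a common −log10 p of at least 5.43 the gains were 3 and 0. The full-length count became 69 when full-length replicate 2 was left out and 16 when wild type replicate 2 was. Without CTD deletion replicates 1 and 2 the other count was 57 and 30. Within the batch without mitochondrial peaks 17 sites had a peak in replicate 2 of full length but none in its wild-type partner. Within the other batch 75 were gained with full-length replicate 1, the only full-length library there. The CTD deletion count was 15, but both of its libraries had to call a site, so the 2 counts are not compared. Shares over all sites were not computed for these alternatives. In the main calls, full-length replicate 1 called 51.8% of the member sites and 49.8% of all sites. CTD deletion replicate 2 called 44.0% and 45.1%. An exact permutation test of 2 libraries against 2 cannot go below a two-sided p of 0.33, so none was run.

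The 3 sites gained with both FOXA2 constructs lay at NES, OTX2 and GLI3. The one in the NES window, chr1:156624210-156626270 in HAPLN2, was gained in both SOX2-set comparisons too, the only member site gained with all 4 constructs (0.602%, against 0.29% of all sites). This held only for the main rule of any overlap with a site that is 2061 bp wide. Under each change of the lists described above, its gains with full length, the CTD deletion and SOX2 were not kept. Its gain with the fusion was kept only where peaks had to cover a set share of the site. Its percentiles were 34.8 and 20.4 in the full-length libraries, 52.2 and 60.9 with the CTD deletion, 13.9 with SOX2 and 6.95 with the fusion. An entry of the SOX2-set wild type stood there at an IDR of 0.158. The OTX2 site, chr14:56828475-56829156, in OTX2-AS1, stood at 32.9 and 72.9 with full length and at 57.7 and 72.1 with the CTD deletion. The GLI3 site, chr7:42001909-42002545, stood at 72.0, 37.2, 8.56 and 92.5 in the same order.

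Next to the OTX2 site, with a gap of 36 bp, lay the fusion-gained site chr14:56829193-56829757. The first was called in the 4 FOXA2 construct libraries and in no list of the SOX2 set, and the second with the fusion alone. Over the 8 windows, 2 of the 10 full-length gains were also SOX2 gains (20%), which is 12.5% of the 16, and 2 were also fusion gains. Such sites were 0.772% and 0.824% of all sites, and over all sites the shares were 9.64% of the full-length gains and 6.91% of the SOX2 gains. The sets have wild types of their own.

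Sites gained with full length and called in no CTD deletion library numbered 4 (2.41%, against 1.42% of all sites). Of these, 2 lay together at NEUROG2, chr4:112548493-112548867 and chr4:112549156-112549561, in ZGRF1. The others were chr6:98820296-98820883, 13691 bp upstream of POU3F2, and chr1:156619380-156619824 over the HAPLN2 start in the NES window. Their percentiles in full-length replicate 1 were 35.1, 91.3, 81.5 and 90.4, and in replicate 2 they were 37.2, 12.4, 12.4 and 28.9. The lists differ in length and lowest value, so these percentiles are not compared between libraries. Full-length replicate 2 is of the inferred batch without mitochondrial peaks, which holds no CTD deletion library. This class and the opposite one therefore compare libraries across batches. At equal numbers of peaks 0 sites of the class were left. Within the batch with mitochondrial peaks there were 51, and without full-length replicate 2 there were 50. Both of these counts asked for a call in only 1 full-length library, replicate 1, and their shares over all sites were not computed.

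The opposite class, gained with the CTD deletion and called in no full-length library, numbered 5 (3.01%, against 1.73%). Besides the NES start these were chr4:112518642-112519191 upstream of NEUROG2, chr14:56847282-56847805 in OTX2-AS1, and chr7:42077952-42078848 and chr7:42272916-42273977 at GLI3. Without CTD deletion replicate 1 the count was 40, without replicate 2 it was 19, without full-length replicate 1 it was 8, and at equal numbers it was 0. The shares over all sites at these settings were not computed. The site 8648 bp upstream of the GLI3 span was called in all 3 lists of the SOX2 set, wild type included (percentiles 50.3, 79.7 and 81.9). So was the CTD deletion gain at chr21:33078433-33079557, 52498 bp from the OLIG2 start (82.7, 71.8 and 59.0). Of the 19 sites gained with either FOXA2 construct, 3 were called in the SOX2-set wild type. That share was not computed for all such gains of the genome.

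Sites open across the lists were few. Only 3 of the 166 were called in all 9 (1.81%, against 2.08% of all sites), 2 at GLI3 and 1 at NES. The first, chr7:42236276-42238352 in the GLI3 span, stood at percentiles from 37.2 (wild type replicate 2) to 97.5 (CTD deletion replicate 2), with 42.8, 93.5 and 89.2 for wild type, SOX2 and fusion. The second was chr7:41942447-41943604, downstream of GLI3. The third was chr1:156659758-156661045, 16362 bp from the NES start and within BCAN-AS2, which stood at 6.23 and 75.8 in the wild-type replicates. At the other end, 102 sites were called in a single list (61.4%, against 61.5% of all sites), 43 of them in full-length replicate 1 and 34 in CTD deletion replicate 2, the longest lists. Their median width was 214 bp, against 1162.5 bp for the 12 sites called in at least 7 lists.

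Sites with a call in 7 or 8 lists stood at other members as well. The site chr11:31779093-31779823, in ELP4 and 20838 bp from the nearest PAX6 start, was called in every list but wild type replicate 1, at percentiles of 90.4 and 91.1 with the CTD deletion and 1.21 with SOX2. The site chr4:112523600-112524407, 7420 bp upstream of NEUROG2 in NEUROG2-AS1, was called in every list but wild type replicate 2, with 63.6, 72.3 and 57.9 in the SOX2 set. The site chr21:33069723-33070786, overlapping OLIG1, was called in 7 lists. The 3 wild-type lists had 34 of the 166 sites between them (20.5%, against 19.3% of all sites) and shared 5 (3.01%, against 2.95%). The SOX2-set wild type called 13 sites that neither wild type of the FOXA2 set called (7.83%, against 8.87%).

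The member windows held from 7.88 (HES5) to 19.5 (NEUROG2) sites per 100 kb with a median of 14.6, where 19974 protein-coding genes had a median of 11.3 and quartiles of 8.34 and 13.7. A list of 24 other neural genes, among them NOTCH1, MEIS1, POU3F3 and CDH2, held 373 sites, of which SOX2 gained 42 (11.3%) and the fusion 47 (12.6%). CDH2, which encodes N-cadherin, had 7 and 8 of these, and MEIS1 3 and 8. In 19 of the 24 windows at least 1 site was gained with SOX2. Of 8 osteoblast genes with 185 sites, SOX2 gained 9.73% and the fusion 14.1%. For 8 hepatic transcription factor genes with 147 sites these shares were 12.9% and 13.6%, and for 7 pluripotency genes with 82 sites 7.32% and 12.2%. The SOX2 shares of these lists lay on both sides of the 9.64% of the neural progenitor genes, and their fusion shares lay below the 14.5%.

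**Figure D4:**
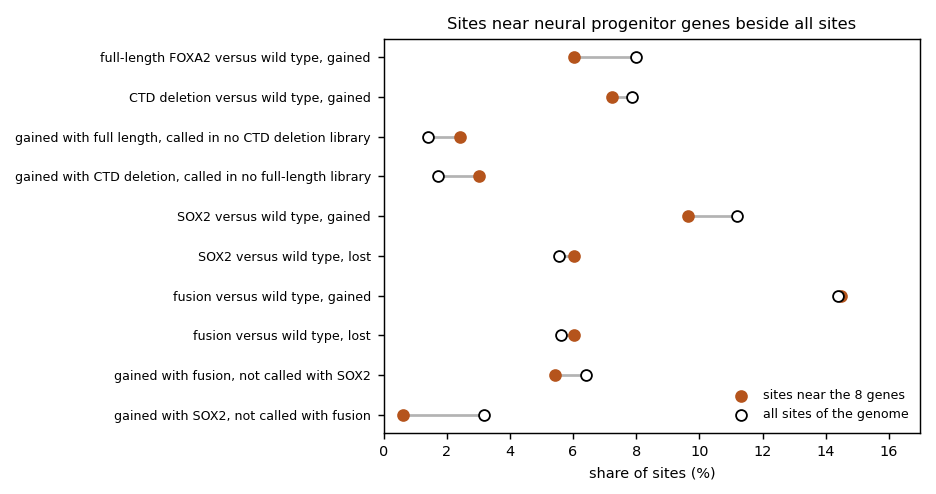
For each call, the filled point is the share of the 166 sites near the 8 genes and the open point the share of all 311447 sites, in percent. The points lie close to one another for every call, with the widest gap in sites gained with SOX2 and not called with the fusion, 0.602% against 3.19%.

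The sites gained with both SOX2 and the fusion were distal in the member windows and across the genome. None of the 15 was within 1 kb of a protein-coding start in the RefSeq table, which holds no starts on chromosome 8, and 3.73% of 23246 such sites elsewhere and here were. Their median width was 789 bp, against 825 bp for all. Of the 17437 sites of the genome called in at least 7 lists, 38.0% were within 1 kb of a start, against 2 of the 12 member sites, those of OLIG2 and POU3F2.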

How the data were processed

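ATAC-seq peak lists of 12 U2OS samples were used, 9 lists in all, and depth is unknown. Per the submitters' processing notes, FastQC 0.10.1, Trim Galore, Bowtie2 2.4.4, SAMtools 0.1.18, MACS2 and deepTools 2.4.1 were used with hg38, in roles that are not given in the sources used here. The 6 lists of the FOXA2 set are in the MACS2 layout, with the authors' fold enrichment (a ratio over the background of the library) and deposited −log10 p per peak. The 3 lists of the SOX2 set are in the IDR layout. Their deposited −log10 p is the lower of those of both inputs, and the deposited score is −log10 of the global IDR. The values depend on library depth and serve only to rank or filter peaks within a list. Peaks with the same value all received the best rank among them, so their percentiles are upper values. In full-length replicate 1 a −log10 p of 2.826 stands at percentile 32.9 and one of 2.824 at 11.3.

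Peaks on chromosomes 1 to 22 and X were kept, in the SOX2 set at a global IDR of at most 0.05, and merged over all 9 lists. A list called a site if a peak overlapped it by at least 1 bp. Gene spans and starts are from RefSeq tables of GRCh38.p14. Starts were used for 15814 protein-coding genes, a number that includes OLIG2 and GLI3 with the 5′ ends of their gene spans. The rule for naming sites took those within 1 kb of a member start, called in at least 3 lists, or gained or lost. It allowed at most 8 per gene by best percentile. The text does not describe every site that met this rule, and its choice among them was made after their values were seen. One left out is chr6:98845483-98846315 near POU3F2, called in 5 lists and at percentile 97.8 of full-length replicate 1. The NES and GLI3 sites past 8 were also chosen after their values were seen. Members and lists were chosen with earlier results of these data known. The calling code was checked on simulated lists with planted gains and losses and no stray peaks. That check does not bear on lists as unequal as those used here. Python 3.11.15, numpy 2.4.6, pandas 2.3.3 and matplotlib 3.10.9 were used. Alternatives were other overlaps, windows, thresholds, list lengths and left-out libraries. Per the labels, the samples of a group are biological replicates.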

Additional observations from a re-analysis of the deposited data

Results flagged for a closer look

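Entries that missed the IDR threshold and touched no site were not used in any comparison. In the 8 windows there were 17 such entries in the wild type of the SOX2 set, 18 with SOX2 and 24 with the fusion, out of 110813, 147763 and 177650 entries in these lists. They are given because the counts with the constructs are above that of the wild type, but the construct lists are also longer. The share of such entries over the genome was not computed, so no difference between the lists is read from these counts. The highest −log10 p among them was 5.40 in wild type, 6.42 with SOX2 and 6.43 with the fusion.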

How the results depend on the processing

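Each of the 6 counts of gained sites moved by more than 1.5 times under at least 1 alternative. All are counts of member sites, and the shares over all sites were not computed under the alternatives. With a window of 10 kb on either side, the counts were 2 (full length), 6 (CTD deletion), 9 (SOX2), 12 (fusion), 0 (full-length-only) and 4 (fusion-only). With 100 kb they moved to 27 (SOX2), 37 (fusion) and 14 (fusion-only). With equal numbers of peaks they were 1 (full length), 1 (CTD deletion), 0 (full-length-only) and 10 (SOX2), with losses of 2, 3 and 12 for full length, CTD deletion and SOX2, and at the common −log10 p threshold 3 (full length) and 0 (CTD deletion). Peaks covering at least 50% of the site gave 6 for the CTD deletion. Leaving out 1 library gave from 13 to 69 (full length), from 15 to 57 (CTD deletion) and from 4 to 50 (full-length-only). Within the batch without mitochondrial peaks 17 were gained with full length, and within the batch with them 75, with 51 full-length-only. Each of these counts asked for a call in only 1 full-length library. With all entries whatever their IDR the counts were 28 (SOX2), 38 (fusion) and 16 (fusion-only). With no entry at any IDR they were 10 (SOX2) and 1 (fusion-only). A wider window or a shorter list changes how many sites can be counted; for the other alternatives the cause was not tested. Merging the lists of 1 set alone left all 6 counts within 1.5 times.

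No paired analysis was possible because the results come from no test, and libraries were matched only in the counts within batches given above. Asking for a call in each construct library and none in the wild type of the same number, over both numbers, is the same condition as the one used.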
